A study of Arabidopsis thaliana and Oryza sativa and Cucumis sativus with 30 samples.

Results

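The genes encoded by the plastid genome were followed in root hair cells of Arabidopsis thaliana. Members were all rows whose gene identifier starts with ATCG, the prefix of the chloroplast genome, in 3 deposited tables. The table of sorted hair cells held 133 such rows of 33550, the table of sieved hairs listed 62 of the 133 among 14919 rows, and the table of the rhd6 comparison listed 1 among 17628 rows. The remaining 71 members were not listed for sieved hairs and 132 were not listed in the rhd6 table, so their values there are not known.

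The chloroplast genome encodes core subunits of both photosystems, of the cytochrome complex between them and of the ATP synthase, and the large subunit of Rubisco. It also encodes an RNA polymerase and part of the plastid ribosome together with its ribosomal and transfer RNAs. Root epidermal cells carry non-photosynthetic plastids with the same genome. Most proteins of the plastid are encoded in the nucleus and imported. Plastid transcripts lack the stable poly(A) tails of nuclear messages.

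The study sequenced RNA of root hair cells and root epidermis from several plant species in 30 libraries, in 10 groups of 3. The 12 libraries used here came from Arabidopsis of the variety Columbia, harvested 4 to 5 days after plating and grown at 22 °C in constant light. The first group, 3 libraries of sieved root hairs numbered 1, 2 and 3, came from roots stirred in liquid nitrogen and passed through a sieve, with RNA amplified by SMART-Seq v4, and no transgene is given for it. Its counterpart was 3 libraries (called A, B and C, in the order of the table's columns) of cells carrying COBL9::GFP, a green fluorescent protein driven by the promoter of a hair cell gene. Those cells were released from pooled root tips by digesting the walls, sorted by fluorescence and prepared with TruSeq. A second pair of groups carried WER::GFP, which marks the root epidermis of hair and non-hair cells. Of these, 3 libraries (10018, 10019 and 9519) came from the mutant rhd6, which lacks a transcription factor that starts hair growth, and 3 (8955, 9483 and 9489) from the wild type, all sorted and prepared as the COBL9::GFP cells were. The series describes its replicates as biological.

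Levels in both hair tables are FPKM, a level scaled to gene length and to the fragments mapped in a library, computed by the authors. The sieved hair table lists only rows with a mean of at least 3.00 FPKM, and 0 of its rows were at 0 in 2 or more libraries, so a missing row is not a row without transcript. An FPKM of exactly 0 may be a failed estimate, and such a row is called listed at 0. In sieved library 1, for example, the ribosomal protein gene AT3G08520 was listed at 0, with 435 FPKM in library 2 and 313 FPKM in library 3. The hair tables were made separately by different isolation and kits, so sieved and sorted hairs are described side by side with no test between them, and isolation, kit and processing cannot be told apart. Summed FPKM is not a read count, and the sequencing depth of the hair libraries is unknown.

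Hair identity was checked with 7 hair cell markers. All 7 were listed in sieved hairs, with summed levels of 5701, 1246 and 1543 FPKM in libraries 1, 2 and 3, against 4064, 1177 and 2472 FPKM in sorted libraries A, B and C. In sieved hairs none of 3 non-hair epidermis markers and none of 4 root cap markers was listed. Of 3 cortex and endodermis markers 2 were listed there, and of 5 stele markers 3 were. In sorted cells the non-hair markers summed to 27.3 to 39.0 FPKM and the root cap markers to 31.6 to 478 FPKM. The sieved libraries differed in how many of all 14919 rows they listed at 0, with 1683 (11.3%) in library 1, 1206 (8.08%) in library 2 and 77 (0.516%) in library 3. For the chloroplast members library 1 had the lowest sum, so the ratio of shares, the overlap counts and the median difference are also given without it.

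Chloroplast-encoded rows took a far larger share of summed FPKM in the sieved hair libraries than in the sorted ones. The bases were unlike, with 14919 listed rows in sieved hairs and 33550 rows in sorted cells. Their summed level was 1739, 17168 and 9847 FPKM in sieved libraries 1, 2 and 3, against 80.5, 13.2 and 52.8 FPKM in sorted libraries A, B and C. As a share of all summed FPKM this was 0.201%, 1.77% and 1.12% in sieved hairs, a mean of 1.03% ± 0.787 (SD, n = 3), against 0.0105%, 0.00174% and 0.00710% in sorted cells, a mean of 0.00644% ± 0.00441 (SD, n = 3). The groups did not overlap, the ratio of the means was 160, and it was 224 without sieved library 1 and 103 without sieved library 2. In such bulk samples fewer cells of a type and less RNA per cell cannot be told apart.

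**Figure D1:**
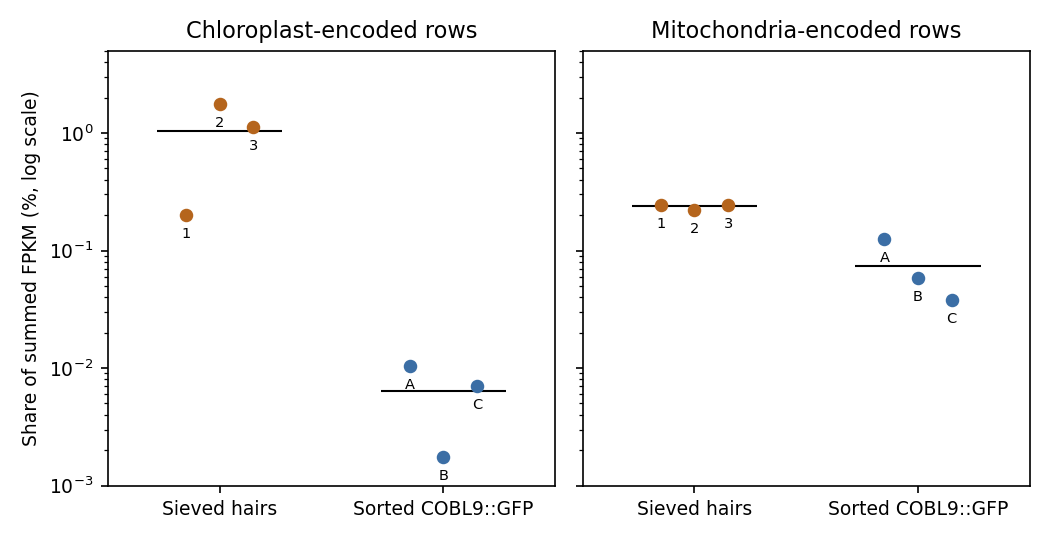
Share of summed FPKM (percent, log scale) held by chloroplast-encoded rows on the left and by mitochondria-encoded rows on the right, with 1 point per library named by its number or letter and a line at the mean of 3 libraries. Sieved hairs lie at 0.201% to 1.77% for the chloroplast rows and sorted COBL9::GFP cells at 0.00174% to 0.0105%, while the mitochondrial shares lie closer together.

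Mitochondria-encoded rows, the other organelle genome in the tables, gave a measure of scale. They held 0.237% ± 0.0128 of summed FPKM in sieved hairs and 0.0737% ± 0.0454 in sorted cells (SD, n = 3 each), a ratio of 3.22 from 13 listed rows in sieved hairs and 145 in sorted cells. Over rows that both tables list, the ratio was 502 for the chloroplast shares and 4.37 for the mitochondrial ones. That restriction keeps rows by their level in sieved hairs alone and leaves out rows seen only in sorted cells, so it bears on the listed members and not on all 133. The chloroplast share also varied within sieved hairs, where its highest value was 8.80 times its lowest, against 1.1 times for the mitochondrial share.

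Detection differed between the tables too. In sorted cells 3 of the 133 members had a mean FPKM of 3 or more, where 38.0% of all rows did. The authors' own mark of expressed rows, whose lowest mean was 5.00 FPKM, was set for 0 of the 133 members and for 32.6% of all rows in the authors' deposited table. In sieved hairs all 62 listed members passed 3 FPKM, as every listed row did. The 61 members past this level in sieved hairs and not in sorted cells are all those listed except ATCG00065.

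ATCG00390 was the highest chloroplast-encoded row of sieved hairs and ranked 7 among the 14919 listed rows. It had 39.3, 6728 and 2113 FPKM in sieved libraries 1, 2 and 3, and was listed at 0 in all 3 sorted libraries. That 1 row made up 2.26% of the chloroplast sum in library 1, 39.2% in library 2 and 21.5% in library 3. No name is given for it, since the reference used here pairs only 6 members with a name. FPKM is scaled to gene length, so ranks and shares also depend on the length of a gene. The lengths of the members were not determined, and 37 of the 131 plastid genes in the reference encode transfer RNAs.

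The next members by mean formed sets that differed in their order over libraries. ATCG00290 had 0, 1544 and 222 FPKM, ATCG00080 had 216, 1057 and 219 FPKM, and ATCG00090 had 149, 938 and 305 FPKM in libraries 1, 2 and 3. ATCG01020 had 73.4, 710 and 246 FPKM. Library 2 was the highest for all of these. ATCG00010, with 0, 571 and 411 FPKM, had the same order, while ATCG00760, with 0, 332 and 591 FPKM, was highest in library 3. Of these 6 members ATCG01020 alone was above 0 in a sorted library, with 3.40 FPKM in A.

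A run of 4 consecutive identifiers behaved otherwise. ATCG00550 had 360, 243 and 929 FPKM, ATCG00560 had 248, 297 and 1107 FPKM, and ATCG00570 had 278, 226 and 896 FPKM. ATCG00580 was lower, at 44.0, 28.1 and 136 FPKM. All 4 were highest in library 3 and were listed at 0 in every sorted library. Summed, the run had 931, 794 and 3069 FPKM, which was 53.5%, 4.62% and 31.2% of the chloroplast sum in libraries 1, 2 and 3. The other 58 members summed to 808, 16374 and 6777 FPKM, lowest in library 1. The run itself was lowest in library 2 and was chosen after its values were seen.

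Members of middling level, with means from 105 FPKM for ATCG00300 to 239 FPKM for ATCG00510, were mostly low in library 1 too. ATCG00510 had 35.0, 284 and 397 FPKM and ATCG00220 had 76.1, 291 and 284 FPKM in libraries 1, 2 and 3. ATCG00110 had 0, 541 and 93.3 FPKM, ATCG00370 had 0, 253 and 261 FPKM, and ATCG00300 had 14.9, 280 and 20.5 FPKM. None of these 5 was above 0 in a sorted library. The spread among libraries 2 and 3 was small for ATCG00220 and ATCG00370 and large for ATCG00110 and ATCG00300.

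There were 3 pairs of neighbouring identifiers with equal values in all 6 hair libraries, and these cannot be treated as separate measurements. ATCG00470 and ATCG00480 each had 14.9, 316 and 106 FPKM in sieved libraries 1, 2 and 3, against 1.01, 1.06 and 0.574 FPKM in sorted libraries A, B and C. ATCG00800 and ATCG00810 each had 1.59, 302 and 121 FPKM in sieved hairs, against 0.201, 0.395 and 0.162 FPKM in sorted cells. ATCG00270 and ATCG00280 each had 0, 51.3 and 9.50 FPKM in sieved hairs, against 0.0749, 0.0578 and 0 FPKM in sorted cells. With 1 row of each pair the sieved share was 0.199%, 1.70% and 1.1%, close to that with both.

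**Figure D2:**
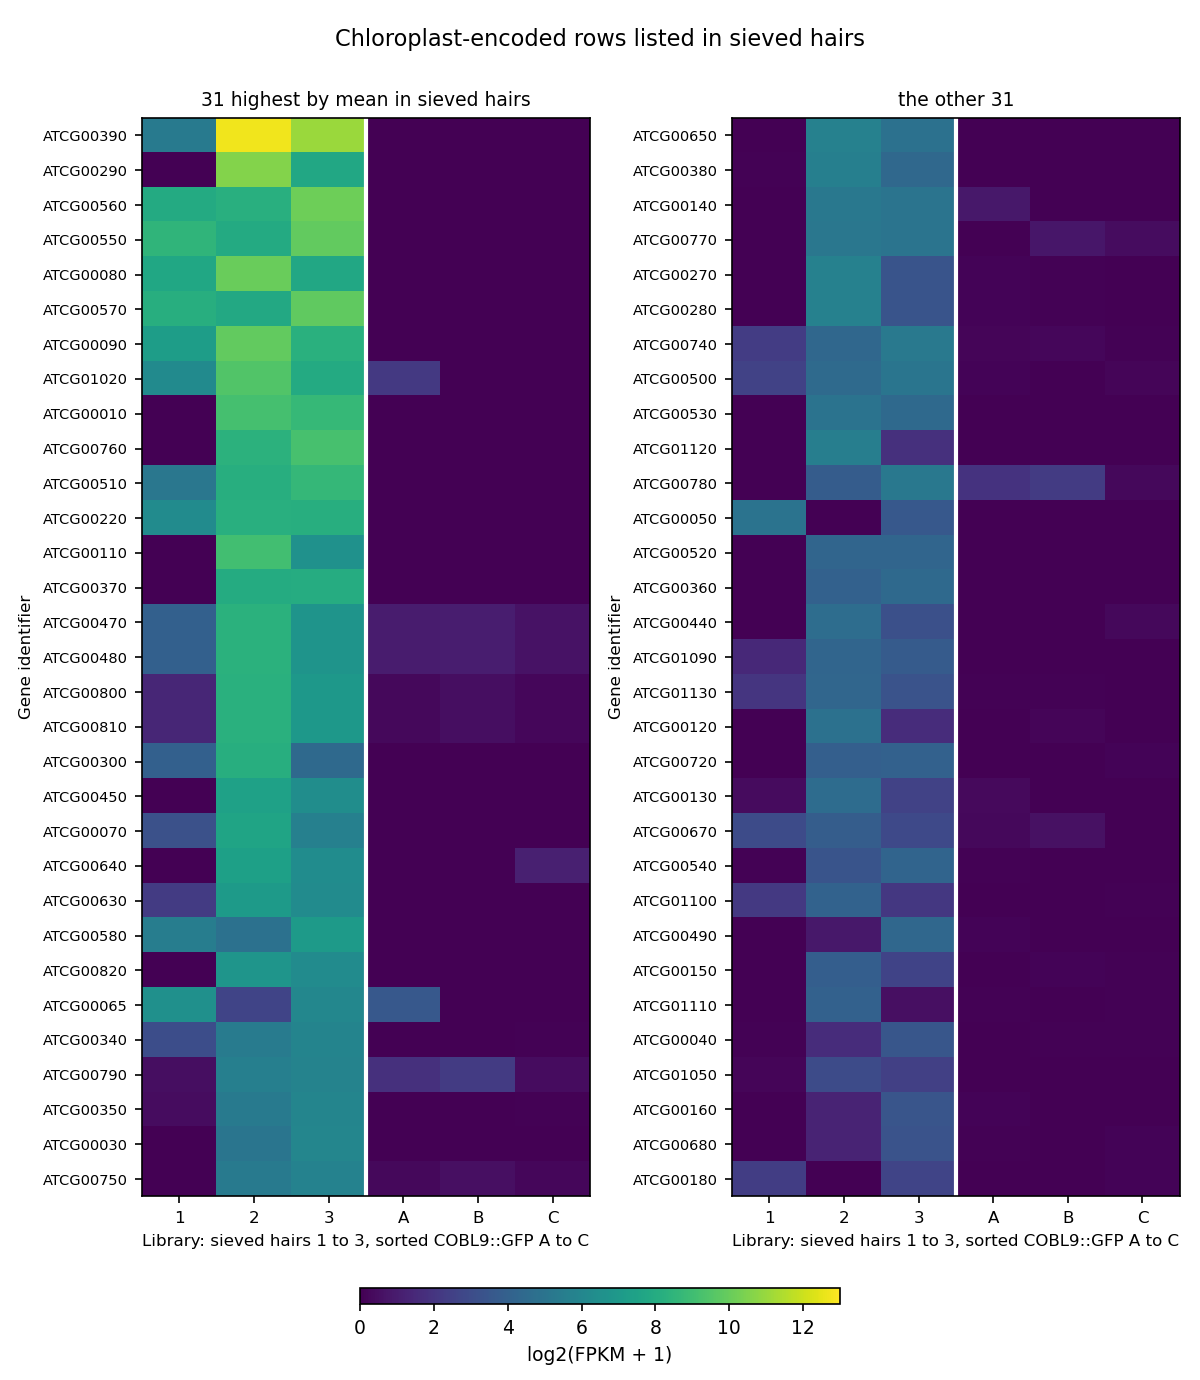
Level of each of the 62 chloroplast-encoded rows listed in sieved hairs, as log2(FPKM + 1) by colour, with 1 line per identifier in order of its sieved mean and 1 column per library, the 3 sieved libraries left of the white line and the 3 sorted libraries right of it. The sorted columns are near 0 for almost every row, and library 1 is dark for many rows that are bright in libraries 2 and 3.

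Of the 6 members with a name in RefSeq's notes on TAIR10.1, 3 were listed in sieved hairs. ATCG00750, a protein of the small subunit of the plastid ribosome (S11), had 0, 38.0 and 52.7 FPKM in sieved libraries 1, 2 and 3, against 0.212, 0.462 and 0.172 FPKM in sorted libraries A, B and C. ATCG00670, the plastid-encoded subunit of the Clp protease, had 6.93, 13.4 and 6.40 FPKM in sieved hairs, against 0.235, 0.511 and 0 FPKM in sorted cells. Its level was the most even of the named ones, and its sieved libraries differed 2.1 times at most. ATCG00530, a CemA-like proton extrusion protein of the plastid envelope, had 0, 30.4 and 21.1 FPKM in sieved hairs and was listed at 0 in all sorted libraries.

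The other 3 named members were not listed in sieved hairs. ATCG00660, ribosomal protein L20, was above 0 only in sorted library C, at 0.242 FPKM. RefSeq's notes call ATCG00430 photosystem II reaction center protein G, and its function was not checked here. ATCG00430 and ATCG01310, ribosomal protein L2, were listed at 0 in all 3 sorted libraries.

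Over the 62 listed members the mean level in sieved hairs ran from 3.12 FPKM for ATCG00180 to 2960 FPKM for ATCG00390. Their median was 28.2 FPKM, against 20.6 FPKM over all listed rows, and 35 members were above that. Of the 62, 19 had a mean over 100 FPKM and 14 had a mean under 10 FPKM. The 10 highest held 78.5%, 73.7% and 71.5% of the chloroplast sum in libraries 1, 2 and 3, so the sum followed a minority of members. The lowest members listed were ATCG00180 with 4.12, 0 and 5.25 FPKM, ATCG00680 with 0, 1.47 and 8.95 FPKM, and ATCG00160 with 0, 1.42 and 9.94 FPKM.

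Library 1 was the lowest of the 3 for 54 of the 62 members, where 49.2% of all rows had it lowest. It listed 27 members at 0, which is 43.5% of them, where 11.3% of all rows were at 0. In library 2, 2 members were at 0, and in library 3 none was. The median member stood at 0.0975, 40.2 and 36.2 FPKM in libraries 1, 2 and 3, against 14.1, 23.2 and 20.0 FPKM over all rows. The median member was thus below the median row in library 1 and above it in libraries 2 and 3.

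The order of library 2 above 3 above 1 was held by 35 of the 62 members, where 34.7% of all rows held it, and library 3 above 2 above 1 by 19. Library 1 was the highest for 2 members. One was ATCG00050, with 30.2, 0 and 10.9 FPKM, and the other ATCG00065, with 91.1, 5.35 and 62.8 FPKM. Both were lowest in library 2, as were 6 of the 62 members in all.

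Libraries 2 and 3 ranked the members most alike. Across the 62 members, which share their libraries and their small genome and are not independent replicates, Spearman's rho was 0.77 between libraries 2 and 3. It was 0.26 between libraries 1 and 2 and 0.39 between libraries 1 and 3. Over all 14919 rows the same pairs gave 0.69, 0.44 and 0.63. The sum over members in library 2 was 9.87 times that in library 1, while the sum over all listed rows was 1.12 times and that of the mitochondrial rows 1.02 times.

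**Figure D3:**
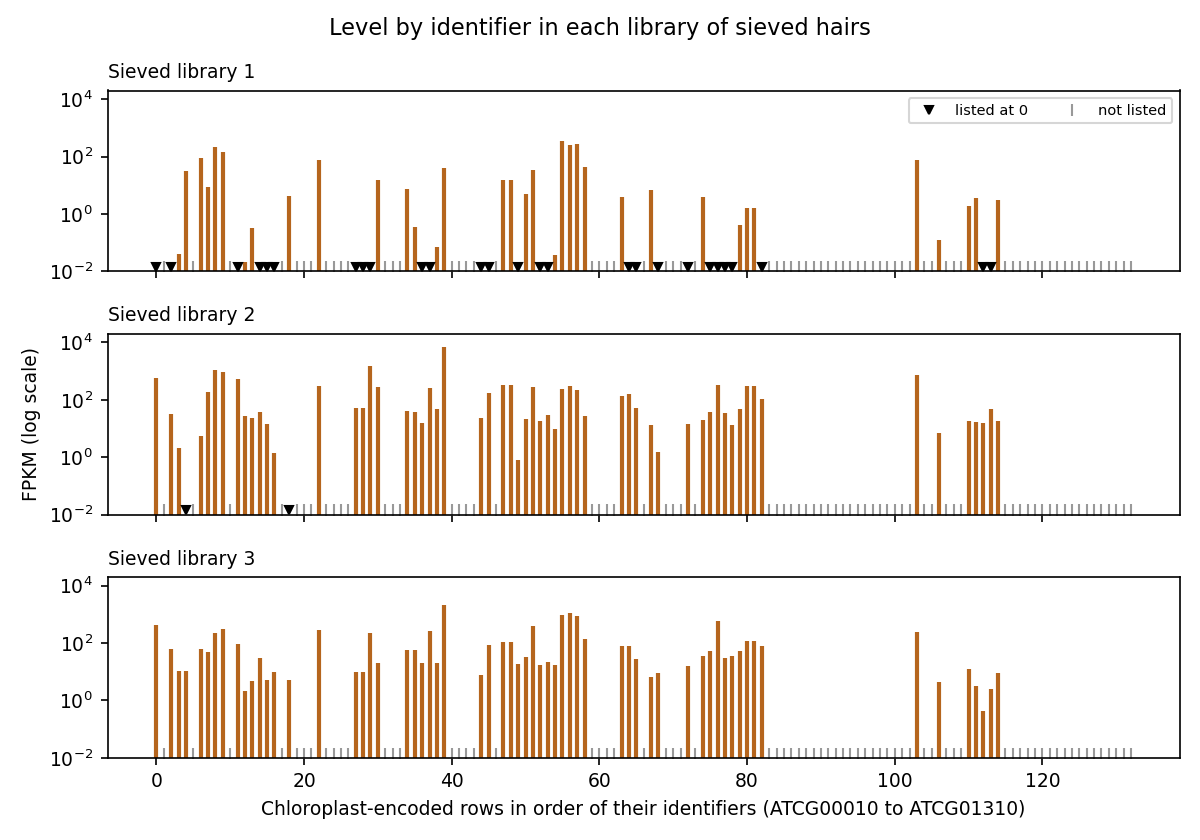
Level (FPKM, log scale) of the 133 chloroplast-encoded rows in order of their identifiers, with 1 panel per library of sieved hairs, triangles for rows listed at 0 and grey ticks for rows not listed. Library 1 lists 27 rows at 0, against 2 in library 2 and none in library 3, and 2 long stretches on the right hold no listed row.

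Rows not listed in sieved hairs fell in 2 long runs of identifiers and in short runs of 1 to 4. No row was listed over the 20 identifiers from ATCG00830 to ATCG01010, or over the 18 from ATCG01140 to ATCG01310. In sorted cells 19 of those 20 and 17 of those 18 were listed at 0 in all 3 libraries. The exceptions were ATCG01010, at 0.0244 FPKM, and ATCG01210, at 0.0386 FPKM, each in library B alone. The longest listed stretches were the 12 identifiers from ATCG00470 to ATCG00580 and the 9 from ATCG00740 to ATCG00820. The chloroplast genome holds an inverted repeat whose genes occur in 2 copies with the same sequence, and reads from such copies can be split or dropped in counting. Which identifiers lie in the repeat was not determined here, and how the authors treated such reads was not stated in the labels or notes.

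In sorted COBL9::GFP cells most chloroplast rows were listed at 0. Of the 133 members, 88 (66.2%) were listed at 0 in all 3 libraries, as were 27.1% of all rows. Above 0 were 20 members in 1 library, 14 in 2 and 11 in all 3. No member reached 3 FPKM in every library.

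Single rows carried the sums of sorted libraries A and C. ATCG00620 had 55.8 FPKM in library A and was listed at 0 in B and C, and it made up 69.4% of the chloroplast sum of A. ATCG00320 had 45.1 FPKM in library C alone, 85.4% of that sum. Neither was listed in sieved hairs. In library B the highest row, ATCG00780, made up 29.3% of the sum. Without the highest row of each library the sorted sums were 24.6, 9.31 and 7.70 FPKM in A, B and C, and the mean share was 0.00182%.

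The third sorted member with a mean over 3 FPKM, ATCG00065, had 11.2 FPKM in A and was listed at 0 in the other two. The coefficient of variation over libraries was therefore the same for all 3 members, since each was above 0 in a single library. Next by mean came ATCG00780, at 2.73, 3.86 and 0.221 FPKM, and its neighbour ATCG00790, at 2.44, 3.86 and 0.358 FPKM in libraries A, B and C. Both were lowest in C, but no order among the sorted libraries is read from such low values. After ATCG01020 came the equal pair of ATCG00470 and ATCG00480. ATCG01060, at 1.28 FPKM in C alone, and ATCG00640, at 1.23 FPKM in C alone, completed the 10 highest.

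The low sorted values were graded in steps. For 15 of the 25 members above 0 in 2 or more sorted libraries, the levels stood within 0.5% of ratios of whole numbers no greater than 5, after each library was scaled by the commonest ratio between low rows. Among other rows above 0 in 2 or more sorted libraries 38.8% of 5452 did so. With whole numbers up to 20, 23 of the 25 members and 96.2% of the other rows did so, and steps were thus general to low rows. The 25 include both rows of each equal pair. The other rows were kept only under 1 FPKM and the members were not, so the shares are of unlike sets. ATCG00750, for example, stood at 1, 2 and 1 such steps in A, B and C, and ATCG00020 at 1, 0 and 1. No order among the sorted libraries is read from values of so few steps.

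Member by member, 28 of the 62 were higher in sieved hairs with no overlap between the 3 sieved and 3 sorted libraries, where 29.3% of rows listed in both tables were. None was lower without overlap, where 9.96% of rows were, and 34 overlapped. That none was lower was fixed in advance. Each listed member had a sieved mean of 3 FPKM or more, and none reached 3 FPKM in every sorted library. Without sieved library 1 the number higher was 59 of 62, beside 50.5% of rows. A row enters the sieved table only through its level there, so these counts describe the listed members and not all 133. On the log2(FPKM + 1) scale the median difference of sieved minus sorted means was 4.45 over the 62 members and 0.91 over all listed rows. Without sieved library 1 it was 5.01 over the members and 0.95 over all listed rows. Over the 62 members with all libraries it ran from 1.98 for ATCG00180 to 11.53 for ATCG00390.

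Among rows with a mean of 3 FPKM or more in both tables ATCG00065 was the 1 member, at 91.1, 5.35 and 62.8 FPKM in sieved hairs, against 11.2, 0 and 0 FPKM in sorted cells. Its difference was 3.52 on the log2(FPKM + 1) scale, beside a median of 0.45 over 11046 rows. Its sorted mean rested on library A.

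Nuclear genes for plastid proteins were read in the same libraries. Of 40 nuclear photosynthesis genes, which encode antenna proteins, photosystem subunits and the small subunit of Rubisco, 27 were listed in sieved hairs. They summed to 193, 1017 and 536 FPKM in libraries 1, 2 and 3, and 22 of the 27 were lowest in library 1. Plastid ribosomal proteins, 22 of 22 listed, summed to 140, 1085 and 539 FPKM, and 21 of the 22 were lowest in library 1. Genes of the plastid transcription machinery, 15 of 20 listed, summed to 60.3, 331 and 178 FPKM, with 11 lowest in library 1. All 3 lists had the order of the chloroplast sum, with library 2 highest and library 1 lowest. The sum over all listed rows had this order too, and 49.2% of all rows were lowest in library 1. The lists differed from all rows in size. Their library 2 sums were 5.26 (photosynthesis), 7.74 (ribosomal proteins) and 5.50 (transcription) times those of library 1, against 1.12 times over all listed rows.

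**Figure D4:**
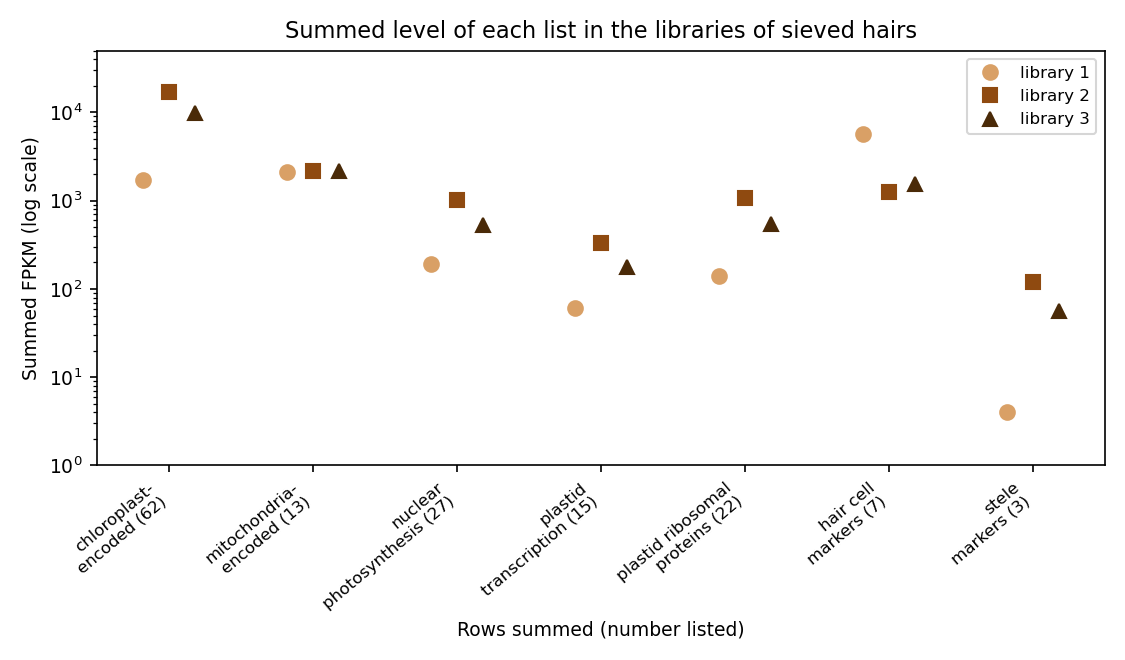
Summed FPKM (log scale) in each of the 3 sieved hair libraries of the chloroplast-encoded and mitochondria-encoded rows, 3 lists of nuclear genes for plastid proteins, and hair cell and stele markers, with the number of listed rows in brackets. The chloroplast rows and the 3 nuclear lists are lowest in library 1 and highest in library 2, the mitochondrial rows are level at 2108 to 2160 FPKM, and the hair cell markers are highest in library 1.

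PSBR, a subunit of photosystem II, was the highest of the photosynthesis genes in sieved hairs, with 94.9, 240 and 145 FPKM in libraries 1, 2 and 3, against 0.0882, 0.482 and 5.06 FPKM in sorted libraries A, B and C. RBCS1A, a small subunit of Rubisco, had 8.99, 76.2 and 83.7 FPKM in sieved hairs, against 0, 1.1 and 23.6 FPKM in sorted cells. The highest of this list in sorted cells was LHCB3, an antenna protein of photosystem II, at 11.2, 5.61 and 10.2 FPKM, which was not listed in sieved hairs.

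PRPL13, of the large subunit of the plastid ribosome, had 0.0340, 118 and 51.2 FPKM in sieved hairs, against 1.57, 3.23 and 6.15 FPKM in sorted cells. PRPL24 had 16.7, 99.1 and 44.7 FPKM in sieved hairs, against 6.63, 6.98 and 7.60 FPKM in sorted cells. PRPL28 was the highest of the list in sorted cells, with 2.75, 22.3 and 17.1 FPKM in sieved hairs, against 6.57, 6.21 and 9.67 FPKM in sorted cells. In sieved hairs all 3 were lowest in library 1.

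PTAC7, of the plastid transcription complex, had 3.19, 107 and 20.3 FPKM in sieved hairs, against 13.7, 4.69 and 5.35 FPKM in sorted cells. SIG5, a sigma factor that guides the plastid polymerase, had 35.3, 0.0872 and 47.7 FPKM in sieved hairs, against 9.02, 7.36 and 7.92 FPKM in sorted cells. SIG5 did not have the order of its list and was near 0 in library 2.

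Regulators of chloroplast development, 5 of 8 listed, summed to 96.3, 118 and 176 FPKM in sieved libraries 1, 2 and 3, against 76.9, 59.1 and 65.4 FPKM in sorted libraries A, B and C. HY5, a transcription factor of the light response, had 67.7, 73.7 and 75.9 FPKM in sieved hairs, against 58.0, 31.4 and 40.1 FPKM in sorted cells. GUN1, a plastid protein of signalling to the nucleus, had 26.3, 16.3 and 84.0 FPKM in sieved hairs, against 17.0, 26.3 and 21.3 FPKM in sorted cells. These 2 genes made up most of the summed level. The other 3 listed regulators were lower, and GUN4, which binds chlorophyll precursors, averaged 4.24 FPKM in sieved hairs and 0.0209 FPKM in sorted cells. GLK2, a transcription factor for photosynthesis genes, averaged 6.13 FPKM in sieved hairs and 0.561 FPKM in sorted cells, and GUN5, a subunit of magnesium chelatase, averaged 5.15 FPKM in sieved hairs and 0.735 FPKM in sorted cells.

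CASP1 of the endodermis was in effect at 0 in libraries 1 and 3 of sieved hairs. The other listed markers of stele, cortex and endodermis had library 2 above 3 above 1, an order that 34.7% of all rows held. Of 5 stele markers 3 were listed, and they summed to 4.03, 120 and 56.5 FPKM in libraries 1, 2 and 3. In sorted libraries A, B and C the 5 summed to 94.2, 48.9 and 55.9 FPKM. AHK4 was the highest of the listed stele markers, with 4.02, 68.6 and 26.9 FPKM in sieved hairs. In sorted cells it had 92.1, 47.8 and 54.2 FPKM, so it does not set other tissues apart here. Of 3 cortex and endodermis markers 2 were listed, at sums of 0, 54.3 and 7.83 FPKM in sieved hairs. The 3 summed to 11.2, 1.55 and 7.75 FPKM in sorted libraries A, B and C. SCR and CASP1 of the endodermis and APL of the phloem were listed at 0 in library 1. CASP1 had 33.9 FPKM in library 2 and 7.7e-15 FPKM in library 3, so the library 3 sum was that of SCR. The summed hair cell markers went the other way and were highest in library 1. Of the 7, RHD6 (18.4, 39.4 and 5.30 FPKM) and RSL4 (49.9, 92.7 and 27.2 FPKM) were highest in library 2. The rest were highest in library 1. The part of other cell types and of library quality in the spread of the chloroplast level was not tested.

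Among the sorted libraries the nuclear photosynthesis and ribosomal protein lists were highest in C. Library C was the highest for 37 of the 40 photosynthesis genes and for 21 of the 22 plastid ribosomal protein genes, where 35.6% of all rows above 0 had it highest. Of the 45 chloroplast members above 0, 16 had it highest. The photosynthesis list summed to 40.3, 49.8 and 213 FPKM in A, B and C, and the ribosomal protein list to 63.2, 69.9 and 124 FPKM. No such order is read for the chloroplast rows, whose sums in A and C turned on single rows. The plastid transcription list was not highest in C, with sums of 34.4, 26.5 and 29.8 FPKM in A, B and C, though 12 of its 20 genes were. The regulators also had their highest sum in A, and 3 of 8 genes were highest in C.

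The comparison of rhd6 with the wild type asked which genes depend on RHD6 in the epidermis, and 1 chloroplast-encoded row could be followed in it. ATCG00190 had 0.903, 1.63 and 1.37 normalized CPM in rhd6 libraries 10018, 10019 and 9519, against 1.34, 0.431 and 1.08 normalized CPM in wild-type libraries 8955, 9483 and 9489. These stood for 18, 26 and 31 reads in rhd6 and for 14, 10 and 23 reads in the wild type, of 10562137 to 23110648 reads summed over the listed rows of a library. The groups overlapped. The means were 1.3 ± 0.369 in rhd6 and 0.95 ± 0.468 in the wild type (SD, n = 3 each).

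The difference did not pass the test. The log2(value + 1) difference of rhd6 minus wild type was 0.26 ± 0.25 (SE), with an adjusted p of 0.629 by limma with Benjamini-Hochberg adjustment over 17575 rows. The call was thus made for 0 of 1 members, where limma called 4.12% of all rows (0.859% higher in rhd6), and the unadjusted p was 0.335 for that row. It was not called by edgeR (adjusted p 0.607) or DESeq2 (adjusted p 0.710) on the recovered reads either. The authors' deposited table gives a log2 fold change of 0.50 and an FDR of 0.719. On the log2(value + 0.1) scale the difference by limma was 0.50 too. In the hair tables ATCG00190 was not listed in sieved hairs and had 0.0454, 0.0989 and 0.159 FPKM in sorted libraries A, B and C.

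**Figure D5:**
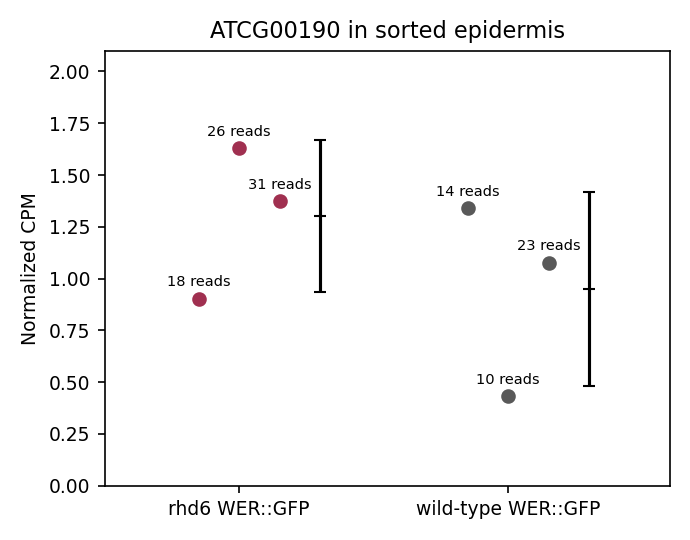
Normalized CPM of ATCG00190 in the 3 rhd6 and 3 wild-type libraries of sorted WER::GFP epidermis, with 1 point per library labelled by its reads, and the mean with a bar of 1 SD beside the points. The groups overlap, with 0.903 to 1.63 in rhd6 and 0.431 to 1.34 in the wild type.

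Of the nuclear lists in this comparison, 12 photosynthesis genes were tested, and LHCB3 fell while 11 did not pass, where 3.26% of all rows fell. LHCB3 had 2.06, 2.38 and 1.82 normalized CPM in rhd6 libraries 10018, 10019 and 9519, against 6.22, 6.77 and 8.20 in wild-type libraries 8955, 9483 and 9489. Its log2(value + 1) difference was -1.38 ± 0.19 (SE), with an adjusted p of 0.00749 by limma. Without wild-type library 9483 its adjusted p by limma was 0.0639, and without 9489 it was 0.0551.

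Over all rows tested, 17.1% had an unadjusted p under 0.05 by limma, 3.78% were called by edgeR and 7.67% by DESeq2, in either direction. None of 19 genes of the plastid transcription machinery passed by limma, with 4 at an unadjusted p under 0.05, 0 called by edgeR and 2 by DESeq2. None of 22 plastid ribosomal protein genes passed by limma, with 3 at an unadjusted p under 0.05 and 0 called by edgeR or DESeq2. Of 4 regulators tested none passed by limma, with 2 at an unadjusted p under 0.05, 0 called by edgeR and 1 by DESeq2. All 7 hair cell markers fell by limma, and 5 were called by edgeR and 7 by DESeq2. By edgeR the adjusted p was 0.0761 for PRP3 and 0.0510 for LRX1, both of the hair cell wall. RHD6 and RSL4, transcription factors of hair growth, were called in all 11 alternatives and the other 5 markers in 5 to 8 of them. RHD6 itself averaged 1.40 ± 0.542 normalized CPM in rhd6 and 78.4 ± 6.09 in the wild type (SD, n = 3 each).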

How the data were processed

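RNA sequencing of 12 Arabidopsis libraries was used. Per the submitters' processing notes the tools were HTSeq 0.6.1, Cufflinks, edgeR, TopHat2 (2.0.3, 2.0.9) and CASAVA 1.8.2, whose roles and order were not stated, and the annotation was that of TAIR10, per the labels. Levels in both hair tables are FPKM as the authors computed it, per the values and the submitters' processing notes. The sorted one also holds other values, the authors' mark of expressed genes. The rhd6 table holds a deposited signal of normalized CPM (read from its headers and values), of which 100% came out as whole reads within 0.01 read. It also holds the authors' log2 fold changes and p-values with FDR, per the file headers, and other columns that were not used.

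Groups came from the labels. Rows of each table were summed, counted and averaged with Python 3.11.15, numpy 2.4.6, pandas 2.3.3 and matplotlib 3.10.9. Across rhd6 and wild type, limma 3.58.1 in R 4.3.3 was run two-sided on log2(value + 1) with an intensity trend, for rows at 1 or more in at least 3 of 6 libraries, with Benjamini-Hochberg adjusted p below 0.05. It was checked on simulated data, with large changes planted in rows of higher level than ATCG00190. That check does not bear on small changes at the level of ATCG00190. edgeR 4.0.16 and DESeq2 1.42.0 on recovered reads, other filters, pseudocounts and scalings, and leaving out each library were alternatives. The members, lists and tests were chosen with earlier results of these data known.

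Named rows were the 10 highest of each hair table, those at 3 FPKM or more in sieved but not sorted hairs (in full in the heatmap), those at 3 or more in both, the member in the rhd6 table, and the 2 highest genes of each list of nuclear plastid genes. Further members given as examples were picked with their values in view. Gene names came from RefSeq's annotation of TAIR10.1, which pairs 6 members with a name, so counts by class of gene and by copy of the inverted repeat were not made. Strandedness and the treatment of reads shared by genes were not stated, so overlapping and duplicated genes are uncertain.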

Additional observations from a re-analysis of the deposited data

How the results depend on the processing

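The mean chloroplast share of sieved hairs was 0.662% to 1.44% with each library left out and that of sorted cells 0.00442% to 0.00879%, or 0.00182% without the highest chloroplast row of each sorted library. The ratio of the shares was 103 to 233 with a library left out, 502 over genes listed in both tables and 388 without the highest row of each library. Detected members numbered 22 in sieved hairs at 3 FPKM or more in every library and 56 to 61 with a library left out. In sorted cells they numbered 6 at a mean of 1 FPKM or more, 0 at 3 FPKM or more in every library, 0 at a mean of 3 FPKM or more and above 0 in at least 2 libraries, and 1 to 4 with a library left out, the 1 being without A. The cause of these shifts was not tested beyond the rows and libraries each setting leaves out. The log2 difference of the 1 member at 3 FPKM or more in both tables was 2.89 to 4.05 with a library left out and 3.07 relative to the median of all genes, and without A no member was left. The 1 member tested in rhd6 was called in 0 of 11 alternatives, with log2 differences of 0.05 to 0.50 and adjusted p of 0.509 to 0.962 by limma, edgeR or DESeq2, while rows called over all genes were 222 to 784 with a library left out (222 without 9483, 239 without 9489, 264 without 8955 and 349 without 9519), against 724 with all, 664 by edgeR and 1348 by DESeq2. Members higher in sieved hairs with no overlap numbered 28 to 59 with a library left out, the 59 being without sieved library 1. These leave-outs of the overlap, the settings without the highest row and with 1 row of each equal pair, and the rule of 2 libraries above 0 were chosen after seeing the data. The alternative without ribosomal and transfer RNA rows was not run, since members could not be paired with a class of gene. No paired analysis was possible because the columns of the WER::GFP and COBL9::GFP tables carry library numbers and not the replicate numbers of the labels. Depth limits ATCG00190, which rests on 10 to 31 reads per library, and it is unknown for the hair tables.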
